A study of Homo sapiens with 36 samples.

Results

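Replication-dependent histone genes encode the linker histone H1 and the core histones H2A, H2B, H3 and H4 that package newly copied DNA. They lie in clusters, mostly lack introns, and are transcribed chiefly in S phase. Their mRNAs usually end not in a poly-A tail but in a short hairpin, the stem-loop, which is bound by the stem-loop binding protein SLBP, and cells that leave the cycle can also make tailed forms of some of them from longer gene models.

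The histone transcripts described here are the gene symbols that begin with HIST1H to HIST4H and had at least 10 counts summed over all 36 libraries of the study. This rule kept 56 of 69 such symbols, out of 28516 symbols in the whole table. They comprise 4 H1, 13 H2A, 18 H2B, 10 H3 and 11 H4 genes, and 46 of them are symbols of the HIST1 set, most of which lies on chromosome 6. The members were thus chosen by their summed counts, so that their levels are given as a description. Just inside the limit were HIST1H2AD with 13 counts and HIST2H4A with 16, and just outside it were HIST1H1T with 9 and HIST1H4L with 6. A further 9 symbols had no count in any library, among them HIST2H2AA4 and HIST2H3C, which have near-identical copies.

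RNA-seq was performed on human neural stem cells (hNSC, a commercial line of multipotent precursors of neurons and glia) 48 h after infection with lentiviral vectors, in 6 groups with 6 libraries each. All libraries were poly-A selected. MEIS1-OE and MEIS2-OE cells received CRISPR-activation, in which a Cas9 that does not cut carries activators to the promoter of MEIS1 or MEIS2, delivered on 3 separate viruses. MEIS1-KO and MEIS2-KO cells received a single virus with a cutting Cas9 and guides against the same genes, and viruses with different guides against 1 gene were mixed. ctrl-OE and ctrl-KO cells received the respective system with non-targeting guides, so that every group was infected and none was left untreated. The cells are pools of infected cells of 1 line, and nothing states that the 6 libraries of a group came from separate cultures, so p-values measure the spread between these libraries.

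The libraries held between 15430000 and 22940500 counts on genes. MEIS1 averaged 17.8 CPM (a gene's counts relative to the library total, scaled by TMM) in ctrl-OE and 310.2 in MEIS1-OE, and 25.7 in ctrl-KO and 8.96 in MEIS1-KO. MEIS2 averaged 22.6 in ctrl-OE and 823.8 in MEIS2-OE, and 25.8 in ctrl-KO and 12.1 in MEIS2-KO. The neural stem cell markers NES and SOX2 had group means of 909.5 to 1734 CPM and of 112.1 to 300.3 CPM, whereas the single genes DCX of neurons, GFAP of astrocytes and POU5F1 of pluripotent cells stayed at or below 0.894 CPM. The marker lists were not at 0, since 6 neuron markers summed to 405.0 to 1039 CPM and 4 pluripotency markers to 363.3 to 664.5 CPM over all libraries. LIN28A, an RNA-binding protein of early progenitors and pluripotent cells, averaged 296.5 to 492.1 CPM. One library stood apart: MEIS2-KO replicate 1 had the fewest counts, and 11 RNAs that end without a poly-A tail summed to 10.1 CPM in it, against 1.82 to 2.82 CPM in the other 35 libraries. Results that rest on this library are given with and without it.

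Nearly every member carried the stem-loop in its gene. A search for arms of 6 bases, GGNNNT and ANNNCC, around the loop TNTN with at least 5 of 6 arm positions paired, on the strand of the gene and within 150 bases after the stop codon, found it in 53 of the 56 members (94.6%), compared with 16 of 19979 other protein-coding genes (0.0801%). Those 16 include further histone genes, namely H2AC13, H2AX, H3-7, H3C15, H4C15 and HIST2H2AA3. HIST1H2BF and HIST1H2BG could not be matched to the annotation used here, and HIST2H2BC is listed as a pseudogene with no stop codon to count from. The hairpin began 22 to 62 bases after the stop codon, with a median of 35. The stem-loops of the most abundant member of each class, and of the other H2B genes with the most counts, are printed with the hairpin in capitals and 5 flanking bases on either side, since they mark the end of the untailed mRNA. They were read from GRCh37 on the strand of the gene, 5′ to 3′.
HIST1H1C: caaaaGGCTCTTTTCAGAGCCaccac
HIST1H2AC: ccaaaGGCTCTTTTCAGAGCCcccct
HIST2H2BE: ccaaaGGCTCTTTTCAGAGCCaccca
HIST1H2BK: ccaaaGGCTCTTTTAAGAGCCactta
HIST1H2BD: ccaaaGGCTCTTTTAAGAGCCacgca
HIST1H2BH: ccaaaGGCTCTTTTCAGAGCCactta
HIST1H3F: ccaaaGGCTCTTTTCAGAGCCaccaa
HIST1H4H: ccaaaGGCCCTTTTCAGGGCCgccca
The arms followed the histone class. GGCTCT paired with AGAGCC in 40 members, none of them H4, and GGCCCT paired with AGGGCC in 11 members, all of them H4. HIST1H2AG and HIST1H2AK, named here for their exceptions, had 1 arm that differed. HIST1H1C, HIST1H2AC, HIST2H2BE, HIST1H2BH and HIST1H3F shared the same 16 letters of hairpin.

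The members differed in how far their gene models reach. In 39 of the 53 the longest model ended at the stem-loop, and in 14 it ran at least 50 bases beyond it, with a poly-A signal near that end in 9. HIST2H2BE (chr1:149856009-149858232 of GRCh37, minus strand) has an exon length of 2224 bases and continued 1729 bases past its hairpin. HIST1H2AC (chr6:26124373-26139344, plus strand), HIST1H2BD (chr6:26158350-26171577, plus strand) and HIST1H4H (chr6:26277837-26285866, minus strand) also have models that extend past it, with downstream exons. HIST1H2BK (chr6:27114140-27114634, minus strand, 495 bases), HIST1H1C (chr6:26055968-26056698, minus strand), HIST1H3F (chr6:26250370-26250863, minus strand) and HIST1H2BH (chr6:26251842-26252303, plus strand) consist of a single exon that ends at the hairpin. HIST1H2BH lies within longer non-coding RNA models of the same strand, to which HIST1H3F is antisense, so that its reads cannot be separated from theirs without the counting setting, which is not given in the sources used here. HIST1H2AC and HIST1H2BD also overlap such models on their own strand, as do members with fewer counts such as HIST1H4E. The same limit may hold for these genes.

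Histone transcripts were a small part of every library. Because the libraries were poly-A selected, mRNAs that lack a tail can be under-represented. These levels therefore do not give the histone mRNA content of the cells. The 56 members took 859 to 1877 counts per library, which was 0.00484% to 0.00876% of all counts on genes. A median of at least 10 counts per library was reached by 17 members, 33 had a median from 1 to 9 counts, and 6 had a median under 1. Counts in every library were found for 24 members. The standard error of the log2 fold change between the controls had a median of 0.49 over all members and of 0.13 over the 12 with the most counts, so that small differences of the other members were not detectable at this depth.

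Few genes held most of these counts. HIST2H2BE had 9152 counts over all libraries (18.4% of those of the members), HIST1H2BK 8225 (16.5%) and HIST1H2AC 5573 (11.2%). They were followed by HIST1H2BD with 4162, the linker histone HIST1H1C with 4079, HIST1H2BH with 3609 and HIST1H3F with 3199, and these 7 genes took 76.2% of the members' counts. With HIST3H2A (1361), HIST1H3H (1198), HIST1H4H (1197), HIST1H2BG (743) and HIST1H2BC (719) the share reached 86.7%. Per kilobase of exon the order changed: HIST1H2BK averaged 22.4 CPM per kb, HIST1H2BH 10.9, HIST1H3F 8.67, HIST1H1C 7.62, HIST1H2BD 6.59, HIST2H2BE 5.57 and HIST1H2AC 4.51. These lengths are those of the annotation used here, and a transcript that ends at the stem-loop would be shorter than the model for HIST2H2BE or HIST1H2AC.

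**Figure D1:**
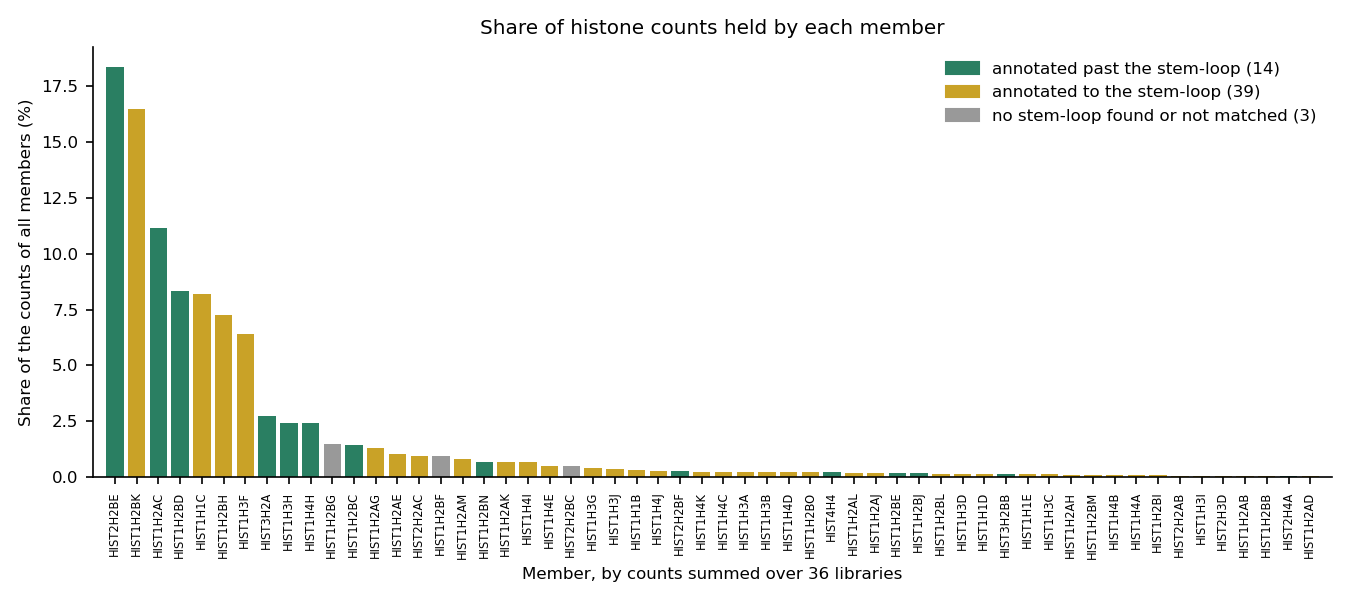
Share of the counts of all members (%) held by each of the 56 members, ordered by counts summed over 36 libraries. Colours show whether the gene model runs past the stem-loop (14), ends at it (39) or has none found (3), and the first 7 bars add up to 76.2%.

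Promoters separated the classes as well. For 50 of the 56 members the RefSeq table (GRCh38.p14) held a promoter, 250 bases before to 50 bases after the start, and 3 words were searched on both strands: the octamer ATTTGCAT or ATGCAAAT, which Oct factors bind, CCAAT or ATTGG, and TATAAA or TTTATA. The octamer was found in 10 of 12 H2A, 13 of 17 H2B and 1 of 8 H3 promoters, and in 0 of 4 H1 and 0 of 9 H4 promoters, compared with 1.802% of all 27305 promoters in the table. CCAAT was found in 42 members (84%, against 35.7% of all promoters), including each of the matched H1, H2A, H2B and H3 genes but only 1 of 9 H4 genes. TATAAA was found in 31 members (62%, against 11.95%). Windows of H2A and H2B genes that start head to head overlap, so 1 word can count for both. The stretches from 200 bases before to 20 bases after the start are printed for the member with the most counts and for the head-to-head genes HIST1H3F and HIST1H2BH, which are compared further on. They were placed on GRCh37 by exact match, at chr1:149858213-149858432 (minus strand), chr6:26250844-26251063 (minus strand) and chr6:26251642-26251861 (plus strand), with the words in capitals.
HIST2H2BE: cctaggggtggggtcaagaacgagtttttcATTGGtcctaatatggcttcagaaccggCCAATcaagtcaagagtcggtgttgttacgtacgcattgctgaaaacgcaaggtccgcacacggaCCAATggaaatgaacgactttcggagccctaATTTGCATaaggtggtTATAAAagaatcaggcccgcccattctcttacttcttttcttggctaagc
HIST1H3F: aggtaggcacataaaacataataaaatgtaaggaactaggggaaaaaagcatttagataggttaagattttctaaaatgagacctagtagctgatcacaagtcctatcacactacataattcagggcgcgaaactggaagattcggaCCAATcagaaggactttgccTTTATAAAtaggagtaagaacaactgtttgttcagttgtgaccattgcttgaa
HIST1H2BH: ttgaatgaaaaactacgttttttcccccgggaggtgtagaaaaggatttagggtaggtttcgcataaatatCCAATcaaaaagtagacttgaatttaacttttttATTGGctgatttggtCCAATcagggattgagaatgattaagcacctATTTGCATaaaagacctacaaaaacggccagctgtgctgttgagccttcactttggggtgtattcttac
HIST2H2BE had the octamer 46 bases and TATAAA 30 bases before the start. HIST1H2BH had the octamer 49 bases before the start and no TATAAA in this window. HIST1H3F had CCAAT 53 bases and TATAAA 31 bases before the start, where TTTATA overlaps it, and no octamer. A word in this window is a description of the sequence and not a measured binding site.

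The summed level of the members differed between the CRISPR systems and little within them. Over the 18 libraries with activation vectors the sum ranged from 73.1 to 85.4 CPM, and over those with knockout vectors from 51.6 to 65.5 CPM, so that the ranges did not overlap. Group means were 77.5 in ctrl-OE, 80.9 in MEIS1-OE, 78.6 in MEIS2-OE, 54.8 in ctrl-KO, 55.5 in MEIS1-KO and 59.7 in MEIS2-KO. On the log2 scale ctrl-OE lay 0.50 above ctrl-KO, MEIS1-OE 0.54 above MEIS1-KO and MEIS2-OE 0.40 above MEIS2-KO, with a pooled SD between libraries of 0.0775. The median log2 fold change over the members was 0.12, −0.11 and −0.14 in these comparisons, beside 0.05, 0.05 and 0.03 over all genes. The sum follows the genes with many counts and does not give the change of the typical member. Against the control of the same system the sum differed by 0.06 in MEIS1-OE, 0.02 in MEIS2-OE, 0.02 in MEIS1-KO and 0.12 in MEIS2-KO. The highest knockout library was MEIS2-KO replicate 1. In bulk RNA, fewer cells that express a gene and less of its RNA per cell cannot be told apart.

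Linker H1 and the H4 class overlapped between the control groups, whereas H2A, H2B and H3 did not. The H1 sum ranged from 5.23 to 8.35 CPM in ctrl-OE and from 4.71 to 6.18 in ctrl-KO, and the H4 sum from 3.23 to 3.71 and from 2.30 to 4.14. The H2A sum ranged from 12.9 to 17.5 against 7.93 to 11.5, the H2B sum from 42.0 to 47.6 against 29.9 to 33.0, and the H3 sum from 7.69 to 9.75 against 4.06 to 5.24 CPM. Single genes decided part of this. Without HIST1H3F the other H3 members summed to 2.58 to 3.53 CPM in ctrl-OE and 2.64 to 2.93 in ctrl-KO, and without HIST1H2AC the H2A members summed to 5.14 to 7.97 and 3.37 to 6.39, so that both classes overlapped. H2B still did not overlap without HIST2H2BE, with 27.4 to 32.8 CPM in ctrl-OE and 21.1 to 25.1 in ctrl-KO. That sum still held HIST1H2BK, which averaged 13.4 CPM in ctrl-OE and 7.80 in ctrl-KO. A sum without both genes was not made, so this does not show a rise of the other H2B members.

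**Figure D2:**
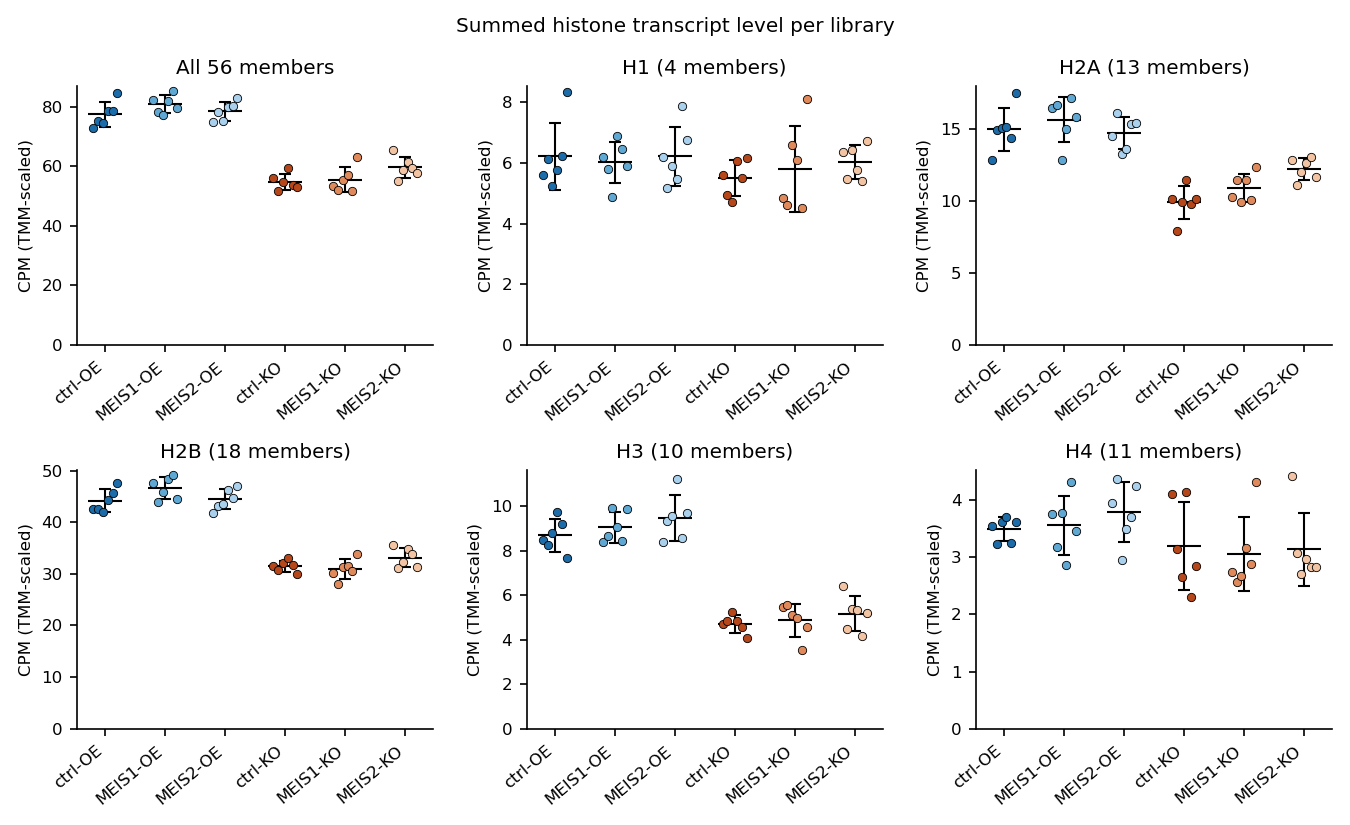
Summed level of all members and of each histone class (CPM, TMM-scaled) in every library of the 6 groups. Points are libraries, the line is the mean and bars are the SD (n = 6). Each library with activation vectors lies above each library with knockout vectors in the sum over 56 members, in H2B and in H3, while H1 and H4 overlap.

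The first comparison of single genes set ctrl-OE against ctrl-KO, in which no MEIS gene is targeted. The vectors, the number of viruses and the kind of Cas9 differ between them. Of the 56 members, 13 rose and 3 fell (edgeR's quasi-likelihood test, Benjamini-Hochberg adjusted over 19689 genes), when 27.5% of all genes tested rose and 23.9% fell. These were 23.2% and 5.36% of the members, below the share among all genes in both directions. With plain library totals instead of TMM 15 rose and 3 fell, and the share of higher genes among all calls moved from 53.5% to 71.2%. The calls fell mainly on the members with many counts. Of the 12 members with the most counts 9 rose and 1 fell, with a median log2 fold change of 0.67, and of the remaining 44 members 4 rose and 2 fell, with a median of −0.12. Over all members the median log2 fold change was 0.12 and over all genes 0.05. By class, 0 of 4 H1, 2 of 13 H2A, 7 of 18 H2B, 2 of 10 H3 and 2 of 11 H4 members rose, and the lower ones were 1 H2B and 2 H4 genes. None of the 4 H1 genes had an unadjusted p under 0.05 either.

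HIST1H1C, the H1 member with the most counts, had 4.90, 5.67 and 7.69 CPM in ctrl-OE (lowest, median and highest of 6 libraries) and 4.41, 5.27 and 5.60 CPM in ctrl-KO. The groups overlapped, and its log2 fold change was 0.19 ± 0.123 (SE, adjusted p = 0.210 by edgeR).

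Among H2A genes, HIST1H2AC had 7.01, 9.36 and 9.97 CPM in ctrl-OE and 4.41, 5.11 and 5.65 CPM in ctrl-KO. All 6 libraries of ctrl-OE lay above those of ctrl-KO, with a log2 fold change of 0.85 ± 0.0824 (edgeR's adjusted p = 2.46e-11). HIST3H2A, which encodes an H2A outside the large cluster, had 1.43, 2.27 and 3.23 CPM against 0.619, 1.26 and 2.46 CPM. Its groups overlapped, and it passed with a log2 fold change of 0.74 (edgeR's adjusted p = 0.0132), though not without replicate 2 or 6.

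H2B genes made up 8 of the 16 calls. HIST2H2BE had 13.96, 15.04 and 16.6 CPM in ctrl-OE and 7.06, 8.28 and 9.62 CPM in ctrl-KO (log2 fold change 0.85 ± 0.0739, edgeR's adjusted p = 1.39e-12). HIST1H2BK had 12.02, 13.3 and 16.1 CPM against 6.57, 7.66 and 8.97 CPM (0.78 ± 0.0795, edgeR's adjusted p = 8.80e-11). Both genes were higher in every library of ctrl-OE than in any of ctrl-KO, although 1 has a model that runs past the stem-loop and the other ends at it. Each shares stretches of at least 100 bases with other genes of the genome, so that reads there may have been dropped from both groups. HIST1H2BD had 5.41, 6.29 and 7.63 CPM against 3.71, 4.89 and 5.38 CPM, and rose by 0.43 on the log2 scale (edgeR's adjusted p = 0.000135) with no overlap. HIST1H2BC had 1.08, 1.40 and 1.68 CPM against 0.290, 0.700 and 0.786 CPM, and rose by 1.11 (edgeR's adjusted p = 1.41e-05). Its long model overlaps other genes on both strands. HIST1H2BG rose by 0.61 with overlapping groups of 0.955 to 1.81 and 0.5796 to 1.20 CPM, and no longer passed without replicate 5 or 6. HIST1H2BN and HIST2H2BF, named after their values were seen, rose by 1.23 and 1.40, of which HIST2H2BF no longer passed without replicate 1, 2 or 5.

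HIST1H2BH went the other way. It had 2.99, 3.78 and 4.78 CPM in ctrl-OE and 5.12, 7.20 and 8.77 CPM in ctrl-KO, a log2 fold change of −0.85 ± 0.135 (edgeR's adjusted p = 1.24e-06). Every library of ctrl-OE lay below every library of ctrl-KO.

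Among H3 genes, HIST1H3F had the largest change of the 12 members with the most counts. It had 4.55, 5.69 and 6.22 CPM in ctrl-OE and 1.40, 1.90 and 2.35 CPM in ctrl-KO, a log2 fold change of 1.58 ± 0.121 (edgeR's adjusted p = 5.51e-14), and the groups lay far apart. HIST1H3H, an H3 gene whose model runs past the stem-loop, had 1.54, 2.13 and 2.41 CPM against 1.39, 1.59 and 2.00 CPM and did not pass (0.33). HIST2H3D, named after its values were seen, had 7 counts over the 6 libraries of ctrl-OE and 0 over those of ctrl-KO, too few for a fold change.

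HIST1H4H, the H4 gene with the most counts, had 1.63, 1.89 and 2.06 CPM in ctrl-OE and 0.824, 1.19 and 1.85 CPM in ctrl-KO. The groups overlapped and the gene passed, with a log2 fold change of 0.59 (edgeR's adjusted p = 0.00158). Among H4 genes named after their values were seen, HIST1H4E rose by 1.07 and no longer passed without replicate 1, 2, 3, 5 or 6, whereas HIST1H4J had a log2 fold change of −1.70. HIST1H4A also passed as lower, at means of 0.0225 and 0.129 CPM, which are too few counts for a fold change.

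The systems were also compared in libraries that share no sample with the controls. There the targeted MEIS gene is raised in the activation and lowered in the knockout libraries, which cannot be told apart from the system. MEIS1-OE against MEIS1-KO gave 12 higher and 5 lower members, when 28.2% of all genes rose and 23.7% fell. MEIS2-OE against MEIS2-KO gave 8 higher and 3 lower members, when 26.7% of all genes rose and 22.5% fell. With plain library totals these counts were 13 and 4, and 9 and 3. Of the 16 members that passed between the controls, 13 passed with the same direction between MEIS1-OE and MEIS1-KO, 9 between MEIS2-OE and MEIS2-KO and 9 in all 3 comparisons, and 0 passed with the opposite direction. This overlap was not counted over all genes, so it cannot be called particular to the members. The 8 that rose in all of them were HIST1H2AC, HIST1H2BC, HIST1H2BD, HIST1H2BK, HIST1H2BN, HIST1H3F, HIST1H4H and HIST2H2BE, and HIST1H2BH was the 1 that fell in each. The call of HIST1H2BN between MEIS2-OE and MEIS2-KO was marginal (0.71, edgeR's adjusted p = 0.0451) and was lost in 8 of 14 alternatives, with adjusted p up to 0.179, while the other 8 genes lost none of their calls in these comparisons.

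HIST1H3F had log2 fold changes of 1.58, 1.48 and 1.42 in these comparisons, and HIST1H2BH had −0.85, −0.91 and −0.77. HIST2H2BE had 0.85, 0.82 and 0.70, HIST1H2BK 0.781, 1.004 and 0.848, and HIST1H2AC 0.85, 0.89 and 0.53. Every library with activation vectors lay above every library with knockout vectors for HIST1H3F, HIST2H2BE and HIST1H2BK, and below for HIST1H2BH. Such separation was not counted over all genes, so it cannot be called particular to these members. HIST1H2AC overlapped, because ctrl-OE replicate 1 had 7.01 CPM and the highest library of MEIS2-KO 7.81 CPM. HIST1H1C and HIST1H3H did not pass in any of the 3. HIST1H2BF passed only between MEIS2-OE and MEIS2-KO, where it was lower (−0.96, edgeR's adjusted p = 0.000516).

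**Figure D3:**
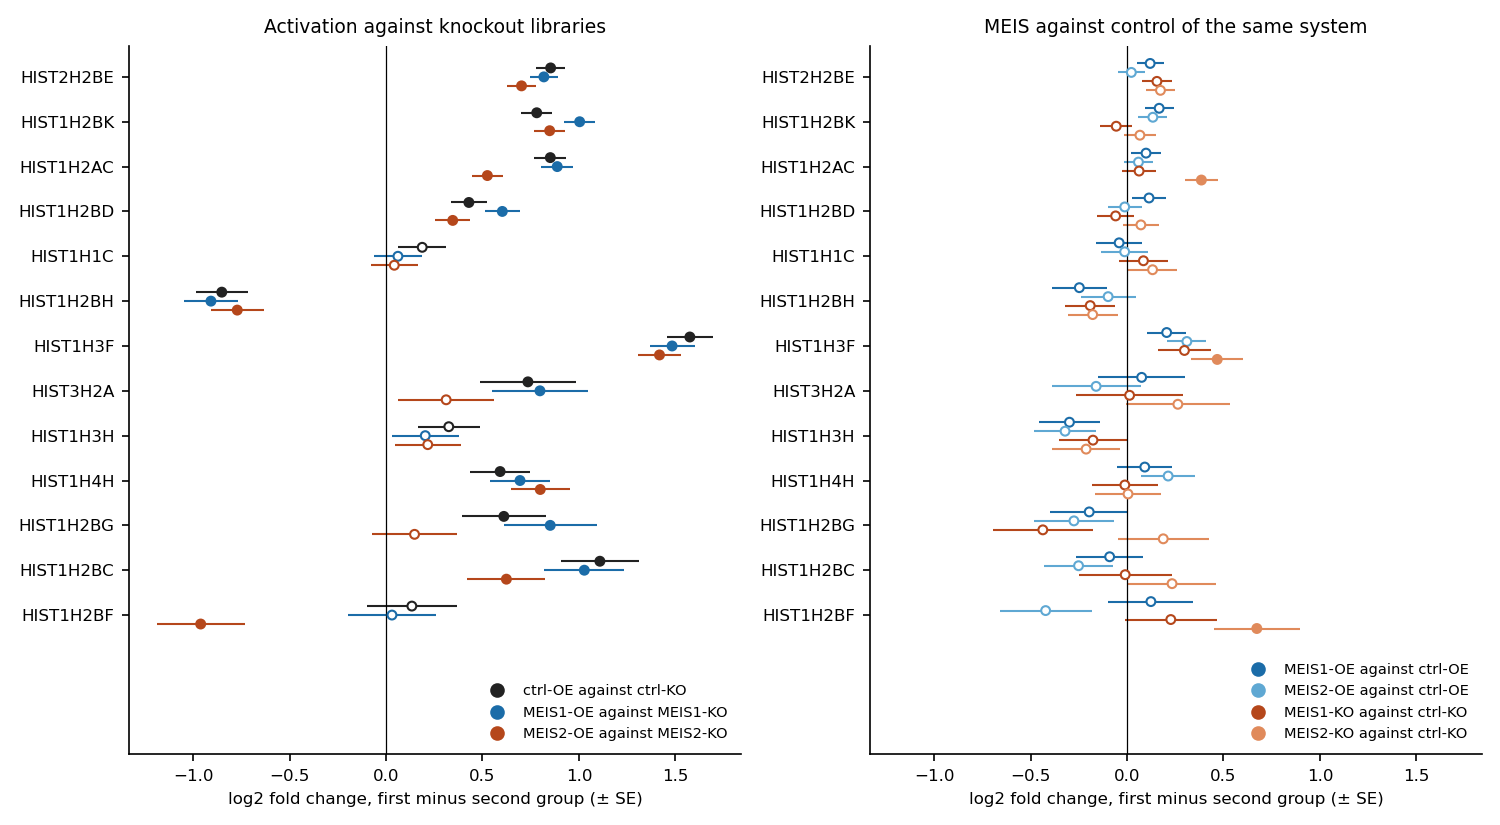
Log2 fold change (± SE, edgeR) of the 12 members with the most counts and of HIST1H2BF. Filled points passed an adjusted p under 0.05 and open points did not. On the left HIST1H3F lies at 1.42 to 1.58 and HIST1H2BH at −0.91 to −0.77, and on the right the filled points are HIST1H2AC, HIST1H3F and HIST1H2BF in MEIS2-KO.

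Members whose gene model runs past the stem-loop were called in 1 direction between the systems. Between the controls, 8 of these 14 rose and 0 fell, with a median log2 fold change of 0.66, whereas of the 39 members that end at the stem-loop 4 rose and 3 fell, with a median of −0.15. As shares these were 57.1% and 0% of the longer models and 10.3% and 7.69% of the others, beside 27.5% and 23.9% of all genes. Between MEIS1-OE and MEIS1-KO the counts were 8 and 0 of 14, and 3 and 5 of 39, beside 28.2% and 23.7% of all genes. Between MEIS2-OE and MEIS2-KO they were 6 and 0 of 14, and 2 and 2 of 39, beside 26.7% and 22.5% of all genes. The sums did not overlap between the controls in either set, with 36.7 to 41.7 against 21.2 to 25.8 CPM for the longer models and 33.2 to 42.2 against 25.6 to 31.4 CPM for the others. The sets differ in counts as well, since 7 of the 12 members with the most counts have the longer model, and this was not separated from the model's end.

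Members that start within 1000 bases of each other on opposite strands form 10 pairs, to which 19 members belong. Between the controls both genes of a pair passed in the same direction in 1 pair, both passed in opposite directions in 1, a single gene passed in 4 and neither in 4. HIST1H2AC and HIST1H2BC, which start 219 bases apart, rose together by 0.85 and 1.11, and again by 0.89 and 1.03 in the MEIS1 libraries and 0.53 and 0.62 in the MEIS2 libraries. HIST1H3F and HIST1H2BH, which start 979 bases apart, passed in opposite directions in all 3 comparisons. The CPM of HIST1H3F divided by that of HIST1H2BH was 0.951 to 1.85 in ctrl-OE, 1.37 to 2.67 in MEIS1-OE and 1.64 to 2.28 in MEIS2-OE. In ctrl-KO it was 0.187 to 0.374, in MEIS1-KO 0.275 to 0.510 and in MEIS2-KO 0.298 to 0.552, so that the systems did not overlap. This ratio lies within a library and does not depend on its scaling.

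HIST2H2BE has a head-to-head neighbour in HIST2H2AC, an H2A gene 236 bases away that is named after its values were seen. HIST2H2AC had 0.201, 0.498 and 0.595 CPM in MEIS1-OE and 0.420, 0.897 and 1.34 CPM in MEIS1-KO, a log2 fold change of −1.09 ± 0.290 (edgeR's adjusted p = 0.00156), while HIST2H2BE rose by 0.82. Between the controls HIST2H2AC had −0.42 and between the MEIS2 libraries −0.58, and neither passed. It shares stretches of at least 100 bases with other H2A genes, where reads may have been dropped.

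**Figure D4:**
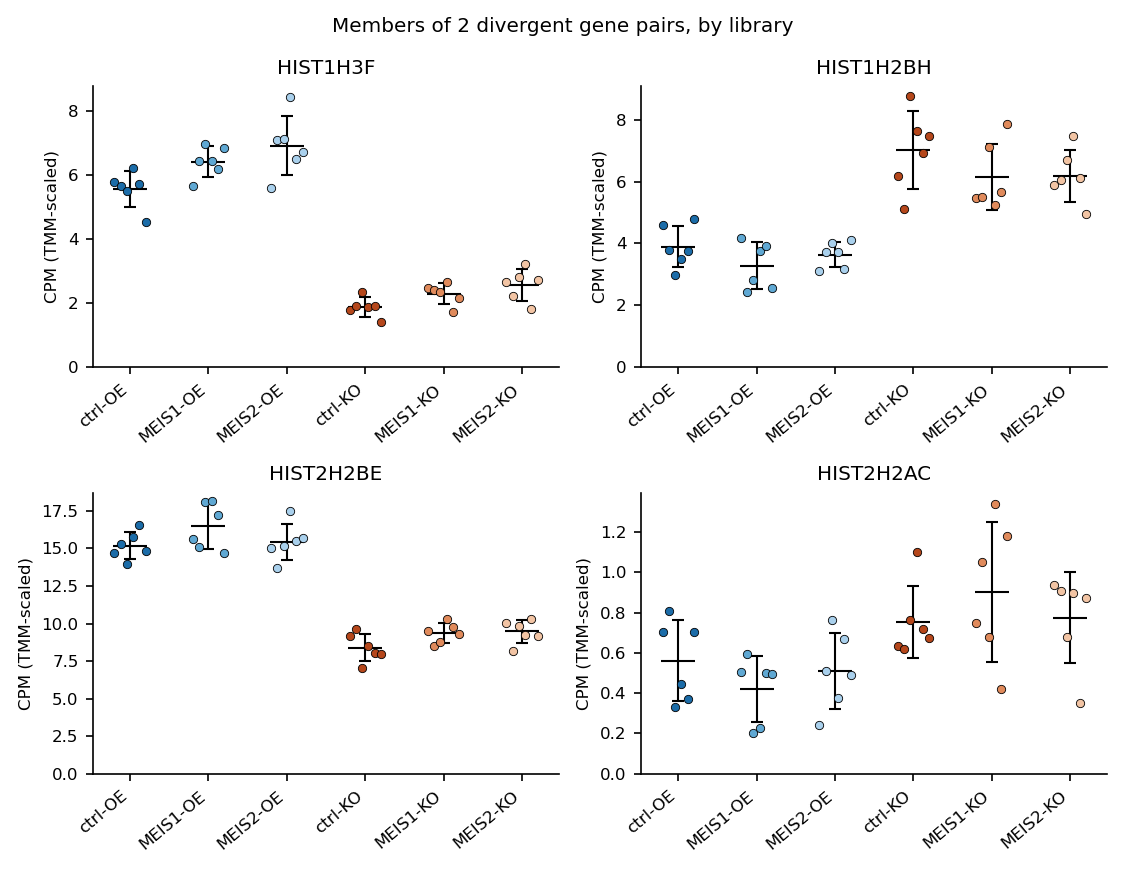
Level (CPM, TMM-scaled) of HIST1H3F and HIST1H2BH and of HIST2H2BE and HIST2H2AC in each library. Points are libraries, the line is the mean and bars are the SD (n = 6). HIST1H3F has at least 4.55 CPM with activation vectors and at most 3.24 with knockout vectors, whereas HIST1H2BH has at most 4.78 and at least 4.94.

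S phase genes and histone chaperones were lower where the members with many counts were higher, whereas genes of histone mRNA processing moved both ways. All 17 S phase genes of the list fell in ctrl-OE against ctrl-KO, with a median log2 fold change of −0.60, when 23.9% of all genes fell, and 16 fell with plain library totals. In the MEIS1 libraries all 17 and in the MEIS2 libraries 16 fell. Their sum was 2688 to 3294 CPM in ctrl-OE and 4416 to 4557 CPM in ctrl-KO. PCNA, the clamp of the replication polymerases, had −0.69 and MCM2, of the replicative helicase, had −0.63. Of 17 histone chaperones 15 fell (10 fell and 1 rose with plain library totals), with −0.59 for NASP, which holds H3 and H4, and −0.58 for CHAF1A of the assembly factor that follows replication. Of the 12 replacement histone genes, whose mRNAs are mostly polyadenylated and made outside S phase too, 1 rose and 5 fell: H3F3B rose by 0.14, and H2AFZ, H2AFV, H2AFY, H2AFY2 and CENPA had −0.46, −0.43, −0.37, −0.46 and −0.75.

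SLBP itself had 67.2 to 72.8 CPM in ctrl-OE and 67.6 to 83.8 CPM in ctrl-KO, and did not pass (−0.08, edgeR's adjusted p = 0.200). Of the 16 genes of histone mRNA 3′ end processing and turnover 2 rose and 5 fell, when 27.5% of all genes rose and 23.9% fell. With plain library totals 5 of the 16 rose and 3 fell. Among these 16 genes LSM10, of the U7 particle that cuts histone mRNA, rose by 0.47, and NPAT, the co-activator of histone gene transcription, had −0.29. Of 11 RNAs without a poly-A tail 0 passed in edgeR between the controls and 0 had an unadjusted p under 0.05, and their sums overlapped at 2.04 to 2.58 and 1.82 to 2.72 CPM.

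**Figure D5:**
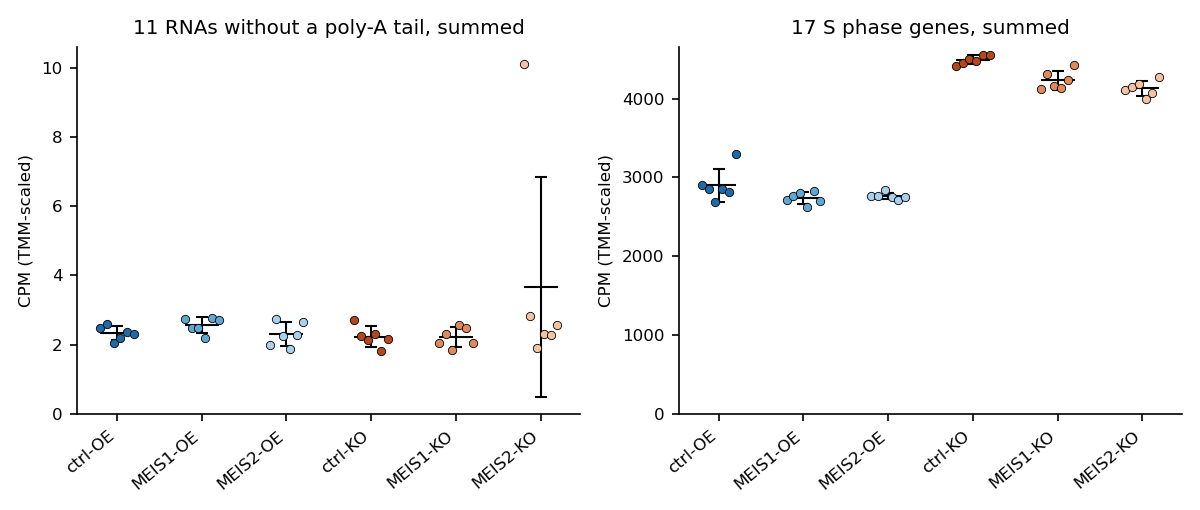
Summed level (CPM, TMM-scaled) of 11 RNAs without a poly-A tail and of 17 S phase genes in each library. Points are libraries, the line is the mean and bars are the SD (n = 6). MEIS2-KO replicate 1 stands at 10.1 CPM on the left, and all libraries with activation vectors lie at or below 3294 and those with knockout vectors at or above 3990 CPM on the right.

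Lists of cell type markers were compared between the controls as well, where 27.5% of all genes rose and 23.9% fell. Of 8 neural stem cell markers 7 were lower in ctrl-OE, with sums of 2930 to 3799 CPM against 4334 to 4846 CPM, and of 6 neuron markers 4 were lower, with 405.0 to 586.8 against 968.8 to 1013 CPM. Astrocyte markers summed to 8.46 to 14.8 against 28.3 to 32.6 CPM, and mesenchymal and endothelial markers to 395.5 to 566.9 against 414.0 to 567.4 CPM. Of 6 oligodendrocyte markers 1 was higher and 2 were lower, and of 4 pluripotency markers 1 was higher and 1 lower. The oligodendrocyte and pluripotency counts cannot be set apart from the share of all genes, whereas 7 of 8 and 4 of 6 lie above the 23.9%. No list was tested as a set. The part of the markers in the differences of the histone transcripts was not tested. The vectors, the number of viruses and the cutting or non-cutting Cas9 differ together between the systems and cannot be told apart.

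The study's own question was what raising or lowering MEIS1 and MEIS2 changes, and few members were called in these comparisons. In MEIS1-OE against ctrl-OE 0 of the 56 members passed in edgeR, when 9.09% of all genes did, and 4 had an unadjusted p under 0.05. DESeq2 also called 0, with 4 at an unadjusted p under 0.05. In MEIS2-OE against ctrl-OE 0 passed (1.35% of all genes), with 3 at an unadjusted p under 0.05 in edgeR, and DESeq2 called 0, with 2. In MEIS1-KO against ctrl-KO 0 passed (1.46% of all genes), with 3 in edgeR, and DESeq2 called 0, with 1. The smallest adjusted p of edgeR in these comparisons was 0.0765, for HIST1H2AK in MEIS1-OE, which is named after its values were seen. The median standard error over the members was 0.50 to 0.53 on the log2 scale in these comparisons and 0.13 over the 12 with the most counts. Small changes of most members were therefore not detectable, and in MEIS2-OE and MEIS1-KO 0 of 56 lies near the share of all genes.

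Among the comparisons with the control of the same system, only MEIS2-KO gave calls. Against ctrl-KO 3 members rose and 0 fell, when 4.04% of all genes rose and 5.98% fell, and the 5.36% of members that rose lie near that background. HIST1H2BF alone also had a log2 fold change above 0.58, as had 1.58% of all genes in either direction. HIST1H2AC had 5.86, 6.43 and 7.81 CPM in MEIS2-KO and 4.41, 5.11 and 5.65 CPM in ctrl-KO, and rose by 0.39 ± 0.0854 on the log2 scale (edgeR's adjusted p = 0.00267). All 6 libraries of MEIS2-KO lay above those of ctrl-KO. HIST1H3F had 1.81, 2.703 and 3.24 CPM against 1.40, 1.90 and 2.35 CPM, and rose by 0.47 ± 0.134 (edgeR's adjusted p = 0.0201), with 4 of 6 libraries above all of ctrl-KO. HIST1H2BF, an H2B gene, had 0.655, 0.868 and 1.16 CPM against 0.281, 0.553 and 0.786 CPM, and rose by 0.67 ± 0.223 (edgeR's adjusted p = 0.0472), with 4 of 6 libraries above.

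HIST1H2AC kept its call in all 14 alternatives, whereas those of HIST1H3F and HIST1H2BF were less stable. HIST1H3F no longer passed without replicate 1, 4 or 6 of both groups, with edgeR's adjusted p up to 0.112. HIST1H2BF no longer passed in 9 of the 14, with adjusted p up to 0.303 without replicate 2 and 0.0701 by DESeq2. Without MEIS2-KO replicate 1 alone, the library that stood apart, HIST1H2AC rose by 0.37 (edgeR's adjusted p = 0.00651) and HIST1H3F by 0.46 (0.0342 by edgeR), whereas HIST1H2BF had 0.61 and an adjusted p of 0.0995 by edgeR. RMRP, an RNA without a poly-A tail, passed with that library and did not without it (0.58, edgeR's adjusted p = 0.268). In MEIS2-KO against ctrl-KO, where 4.04% of all genes rose and 5.98% fell, 9 of 17 S phase genes and 5 of 17 chaperones fell. Of the processing genes 3 of 16 fell. Of the mesenchymal and endothelial markers 5 of 6 rose, with sums of 655.7 to 923.6 CPM in MEIS2-KO and 414.0 to 567.4 CPM in ctrl-KO. The part of these lists in the rise of the 3 histone genes was not tested.

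HIST1H3F had log2 fold changes of 0.21 in MEIS1-OE, 0.31 in MEIS2-OE, 0.30 in MEIS1-KO and 0.47 in MEIS2-KO, and HIST1H2BH had −0.25, −0.10, −0.19 and −0.18. The comparisons share their control libraries in pairs, and of these 8 values only that of HIST1H3F in MEIS2-KO passed. HIST2H2BE had 0.12, 0.02, 0.16 and 0.17 and HIST1H1C −0.04, −0.01, 0.09 and 0.13.

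The contrast of overexpression with knockout, in which the effect of each is taken against its own control, asks for transcripts that follow the level of MEIS1 or MEIS2. In the MEIS1 contrast 0 members passed in edgeR (3.48% of all genes), with 3 at an unadjusted p under 0.05, and DESeq2 called 0, with 0 at an unadjusted p under 0.05. In the MEIS2 contrast 0 passed (2.56% of all genes), with 4 at an unadjusted p under 0.05, and DESeq2 called 0, with 5. The smallest adjusted p was 0.0613, for HIST1H2BF (log2 difference −1.09 ± 0.327, edgeR). HIST1H2AC had −0.33 ± 0.115 in the MEIS2 contrast (edgeR's adjusted p = 0.129) and 0.04 ± 0.117 in the MEIS1 contrast. Of the replacement histones, H1F0, the linker histone of resting and differentiating cells, passed in the MEIS2 contrast at 0.36 ± 0.0691 (edgeR's adjusted p = 0.00122). It had −0.33 in MEIS2-KO, where the H1 members had a median of 0.03 and 0 of 4 passed.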

How the data were processed

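Raw counts of reads per gene symbol were deposited by the authors for 36 poly-A selected, stranded, paired-end libraries (TruSeq). Per the authors' methods, reads were aligned to hg19 with STAR and counted with HTSeq, and the submitters' processing notes name Trimmomatic 0.39 and STAR 2.7.0a. The annotation and strand setting are not given in the sources used here. HTSeq leaves out reads that map to several places, so near-identical histone genes can lose counts.

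Genes with at least 10 counts in all were scaled by TMM and tested in 1 fit of 6 groups with edgeR 4.0.16 (limma 3.58.1, R 4.3.3), two-sided and adjusted by Benjamini-Hochberg over 19689 genes. A call is an adjusted p under 0.05. DESeq2 1.42.0, other scalings and filters, fits of fewer groups, a replicate block, left-out libraries and the omission of members that share 100 bases elsewhere were alternatives. The procedure was tested on simulated data. Comparisons of MEIS1-OE with MEIS1-KO and MEIS2-OE with MEIS2-KO, plain library totals, and the omission of MEIS2-KO replicate 1 were added after the data were seen. The members and gene lists were chosen with earlier results of these data known. Named are the 12 members with the most counts and those among the 5 smallest p of a comparison that passed, and others are marked. Positions and stem-loops come from GRCh37 with GENCODE, promoters from RefSeq.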

Additional observations from a re-analysis of the deposited data

Results flagged for a closer look

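Within groups of 6 libraries, 24 measures were searched for a highest or lowest library far from the rest, 144 groups in all, and 10 were marked where about 5% would be by chance. ctrl-OE replicate 6 was marked in 4 of them. Its H1 members summed to 8.35 CPM (next library 6.23), its members annotated to the stem-loop to 42.2 CPM (next 35.6), its S phase genes to 3294 CPM (next 2904) and its replacement histone genes to 2869 CPM (next 2422).

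MEIS2-KO replicate 1 had 10.1 CPM of RNAs without a poly-A tail (next 2.82) and 4.42 CPM of H4 members (next 3.07). MEIS1-KO replicate 6 had 4.31 CPM of H4 members (next 3.16) and 2.31 CPM of HIST3H2A (next 1.37). HIST1H2BG had 1.21 CPM in MEIS1-KO replicate 5 (next 0.667). HIST1H2AC had 7.01 CPM in ctrl-OE replicate 1, the lowest of its group (next 9.11).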

How the results depend on the processing

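For the 47 pairs of a member and a comparison that passed, 649 values were computed under alternatives. None reversed in direction, 588 stayed on the same side of the threshold and 61 no longer passed. Members that share 100 bases elsewhere carried part of the calls: without these 13, 10 members passed between the controls, 11 between MEIS1-OE and MEIS1-KO and 7 between MEIS2-OE and MEIS2-KO, with summed log2 ratios of 0.35, 0.38 and 0.23. Only 43 members were counted there, and HIST1H2BF and HIST1H2BG, which were not matched to the annotation, stayed in. With plain library totals the summed log2 ratios were 0.65, 0.67 and 0.52. That scaling moved the median of all genes between the controls from 0.05 to 0.20 and the share of higher genes among calls from 53.5% to 71.2%, and the latter from 60.7% to 46.6% in MEIS1-OE, from 40.3% to 51.0% in MEIS2-KO and from 54.1% to 41.2% in the MEIS2 contrast, where the counts of members did not move.

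With each replicate number left out, 1 to 4 members passed in MEIS2-KO, 12 to 15 between the controls, 14 to 16 between MEIS1-OE and MEIS1-KO, 10 to 14 between MEIS2-OE and MEIS2-KO and 0 to 1 in the MEIS2 contrast, and the summed MEIS1 contrast lay between 0.00240 and 0.12 (0.12 without replicate 6). In MEIS2-KO 1 member passed without replicate 1 or 6 of both groups (HIST1H2AC), and 1 with a log2 fold change above 0.58 as well. Fits of only the groups compared called 1 member in MEIS1-OE (HIST1H2AK, higher) and 1 in MEIS2-OE (HIST1H2AJ, lower), and filterByExpr and the omission of replicate 4 each called 1 in the MEIS2 contrast (HIST1H2BF, lower). The cause was not tested.

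With the replicate number as a block 16 members passed between the controls, 17 and 11 between the MEIS1 and MEIS2 libraries, 2 in MEIS2-KO and 0 in the other comparisons and contrasts. Libraries of different groups with the same number deviated together in part (mean correlation 0.12, above 0.1 in 51 of 90 pairs). Between different numbers the mean correlation was −0.026. What libraries of the same number share is not stated in the sources used here, and the main fit does not pair them. Counting error limits the 39 members with a median under 10 counts per library.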
